A study of Mus musculus with 10 samples.

Results

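The genes described here are 9 genes of the synapse and of signalling to it: *Npas4*, *Arc*, *Homer1*, *Nptx1*, *Nptx2*, *Nptxr*, *Rheb*, *Plk2* and *Rgs2*. Most are known as activity-regulated genes, but *Nptx1* is known as a constitutive pentraxin, and in these data the levels of *Nptx1* and *Nptxr* in SE mice overlapped those of pre-SE mice. They were chosen by symbol, and all 9 were found among the 15900 genes of the table and passed the filter on low values together with 15851 genes in all. Cap analysis of gene expression (CAGE) sequences the capped start of each transcript, and the values are CPM, in which a gene's tags are scaled to the same total in every library. Whole hippocampi of male ICR mice, which were 9 to 10 weeks old at treatment, were used, and each of the 5 groups held 2 mice, called a pair for short although no mouse is matched to another. The pre-SE mice were labelled as untreated, and the study's methods describe control mice as given saline in place of pilocarpine (PILO). The other mice received methyl scopolamine and then PILO, an agonist of muscarinic receptors, and status epilepticus (SE), defined by 5 generalized convulsive seizures, was ended with diazepam. SE 6 h and SE 2 days mice received no levetiracetam (LEV), an antiseizure drug that binds a synaptic vesicle protein. SE + LEV 6 h mice had received oral LEV 1 time and SE + LEV 2 days mice 5 times before sampling. Since the labels call the pre-SE mice untreated, the effects of seizures, PILO, methyl scopolamine and diazepam cannot be told apart.

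Activity-regulated genes are transcribed within minutes to hours of synaptic calcium entry, largely through transcription factors such as CREB that are already present in the neuron. *Npas4* encodes a transcription factor, and the other genes encode proteins that change the synapse itself. Arc removes AMPA-type glutamate receptors from the membrane, Homer1 links metabotropic glutamate receptors to the postsynaptic scaffold, the neuronal pentraxins cluster AMPA receptors from outside the cell, Rheb switches on the growth kinase mTORC1, Plk2 phosphorylates proteins of the spine and lowers synaptic strength, and Rgs2 shortens signalling through G proteins.

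Promoters are shown because the cyclic AMP response element (CRE), the binding sequence of CREB, is a known feature of activity-regulated genes. RefSeq promoters on GRCm38.p6 were matched by symbol for 5 of the 9 genes, *Npas4*, *Homer1* (with 2 starts), *Plk2*, *Rgs2* and *Rheb*. All 5 were higher in both SE 6 h mice than in both pre-SE mice, as were 18.6% of all genes. *Arc*, *Nptx1*, *Nptx2* and *Nptxr* had no entry, so the windows cannot set genes that rose beside *Nptx1* and *Nptxr*. Any link between motifs and the size of a change was not tested. The 250 bases before the start are printed, with matches to the motifs searched in capitals. The region is chr19:4989972-4990221 on the minus strand for *Npas4*, chr13:93303507-93303756 on the plus strand for the first start of *Homer1*, chr13:110394794-110395043 on the plus strand for *Plk2*, chr1:144004150-144004399 on the minus strand for *Rgs2* and chr5:24842362-24842611 on the minus strand for *Rheb*.
Npas4: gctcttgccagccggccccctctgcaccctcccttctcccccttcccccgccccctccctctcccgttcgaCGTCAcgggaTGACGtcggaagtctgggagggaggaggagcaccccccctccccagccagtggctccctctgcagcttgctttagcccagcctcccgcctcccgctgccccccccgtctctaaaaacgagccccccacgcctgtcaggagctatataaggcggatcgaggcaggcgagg
Homer1: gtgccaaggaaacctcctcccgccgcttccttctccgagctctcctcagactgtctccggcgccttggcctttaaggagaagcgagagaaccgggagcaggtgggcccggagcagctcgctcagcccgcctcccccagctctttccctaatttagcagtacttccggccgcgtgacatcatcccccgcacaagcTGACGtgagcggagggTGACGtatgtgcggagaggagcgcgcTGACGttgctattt
Plk2: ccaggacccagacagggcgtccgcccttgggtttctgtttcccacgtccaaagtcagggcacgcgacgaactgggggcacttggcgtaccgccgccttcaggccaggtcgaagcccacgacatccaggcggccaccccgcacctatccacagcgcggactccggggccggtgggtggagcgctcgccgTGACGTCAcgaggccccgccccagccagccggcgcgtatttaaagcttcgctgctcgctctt
Rgs2: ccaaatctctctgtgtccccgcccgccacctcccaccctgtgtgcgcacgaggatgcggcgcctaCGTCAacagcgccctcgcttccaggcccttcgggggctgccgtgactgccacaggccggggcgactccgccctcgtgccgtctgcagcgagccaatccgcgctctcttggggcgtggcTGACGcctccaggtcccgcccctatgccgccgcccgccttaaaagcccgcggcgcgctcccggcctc
Rheb: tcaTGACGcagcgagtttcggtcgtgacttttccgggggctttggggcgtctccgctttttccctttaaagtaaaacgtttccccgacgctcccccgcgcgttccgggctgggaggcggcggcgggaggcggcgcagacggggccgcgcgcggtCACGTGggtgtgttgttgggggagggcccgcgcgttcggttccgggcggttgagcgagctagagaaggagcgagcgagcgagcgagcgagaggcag
The motifs searched on both strands were the full CRE (TGACGTCA), its core (TGACG), the AP-1 site (TGANTCA), the E-box (CACGTG), the Egr GC box (GCGTGGGCG), the TATA box (TATAAA) and the CArG box. Each full CRE also holds a core on each strand. *Plk2* held a full CRE from 62 to 55 bases before the start, a motif found in 1.55% of 32851 mouse promoters of this length. Cores, found in 17.8% of promoters, stood at 2 places in *Npas4* (179 and 169 bases before the start), at 3 in *Homer1* (56, 40 and 14), at 2 in *Rgs2* (185 and 67) and at 1 in *Rheb* (247). *Rheb* also held an E-box from 96 to 91 bases before the start (6.02% of promoters). The second start of *Homer1*, at chr13:93307784-93308033, held 0 matches. The forms searched of the AP-1 site, Egr GC box, CArG box and TATA box were not matched in these windows. They were in 6.75%, 0.536%, 1.47% and 12.4% of promoters. Other forms of these motifs were not searched, and the *Npas4* window holds the TATA-like run tatataag near its start. The windows of the 5 first starts were 62.4% to 72.4% G and C, against a median of 52.4% over all promoters.

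**Figure D1:**
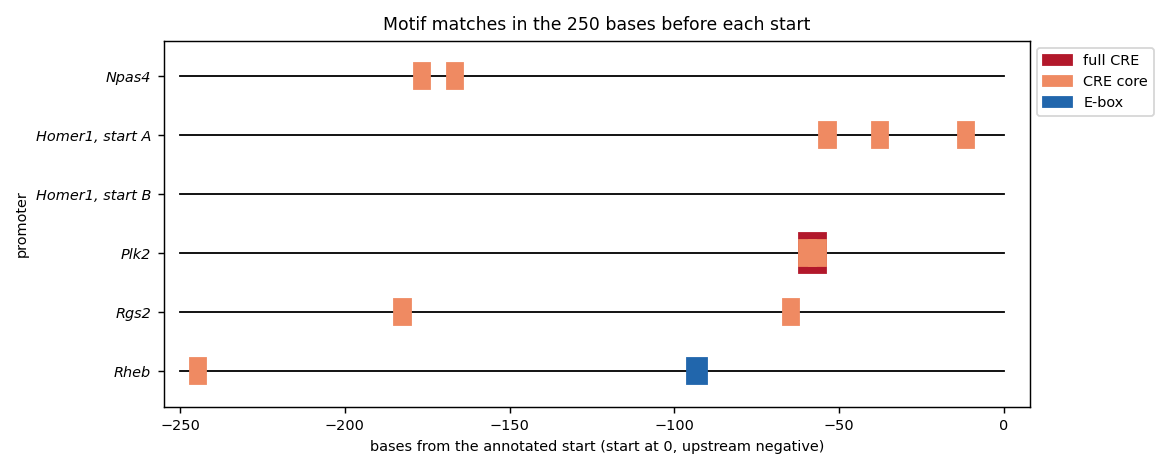
Positions of motif matches in the 250 bases before the RefSeq start of 5 genes, with the start at 0 and upstream bases negative on the x axis and 1 line for each promoter (2 starts for *Homer1*, A being the first and B the second). Each box spans the bases of a match, the full CRE of *Plk2* stands from 62 to 55 bases before its start, and the second start of *Homer1* has 0 matches.

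The libraries held an estimated 10540696 to 51710969 tags, so that 3 tags were worth 0.058 to 0.285 CPM, and every value of the 9 genes lay above this. Each comparison was tested with limma on log2(CPM + 0.1) across all genes, and a gene was called where the Benjamini-Hochberg adjusted p was at most 0.05. The logFC is a difference of group means on this log2 scale. Values of 2 mice are given in the order replicate 1, replicate 2. An exact permutation of 2 mice against 2 cannot give a two-sided p under 0.333, so calls rest on the spread shared across groups and genes. Markers of neurons (8 of 9 listed in the table) were at 3399 to 6152 summed CPM in all mice, as fits the labelled tissue, and 0 of these genes were at 0. Markers of excitatory neurons summed to 5330 and 4427 CPM in the pre-SE pair, 3897 and 2250 in the SE 6 h pair and 2615 and 1864 in the SE 2 days pair. Markers of microglia (7 of 7) summed to 265 to 431 CPM in pre-SE and 6 h mice and to 845 to 1136 at 2 days, and those of astrocytes (8 of 8) to 2572 to 3405 and to 3829 to 5178. Of the 8 astrocyte genes, *Gfap* and *Aqp4* were called higher in SE 2 days than in pre-SE mice, 4 were lower in both SE 2 days mice, and the median logFC was -0.48. Markers of inhibitory neurons were at 755 to 1786 CPM, of pyramidal cells at 655 to 863, of oligodendrocytes at 1777 to 6473, of endothelium at 60.1 to 178, of infiltrating myeloid cells at 5.08 to 76.0 and of dentate granule cells at 199 to 447, with *Tdo2* at 0 in 2 mice. Markers of choroid plexus (3 of 6 in the table), a tissue that borders the hippocampus, were uneven between mice of the same group, with 8.15 and 3965 CPM in the SE 6 h pair and *Aqp1* at 0 in 1 mouse. In whole tissue, fewer cells of a type and less RNA per cell cannot be told apart, and the part of these markers in the results was not tested.

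Over the 9 genes, the 2 mice of a group differed in how far they lay from the pre-SE mean. The median distance of the 9 genes, in log2 units, was 2.37 and 1.69 in the SE 6 h pair, 1.96 and 0.72 in the SE + LEV 6 h pair, 1.10 and 2.70 in the SE 2 days pair, and 0.68 and 0.15 in the SE + LEV 2 days pair. SE 2 days replicate 2 thus stood above its partner by more than any other pair of mice differed. The comparisons of SE 2 days with pre-SE mice and with SE + LEV mice are therefore also given without it.

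**Figure D2:**
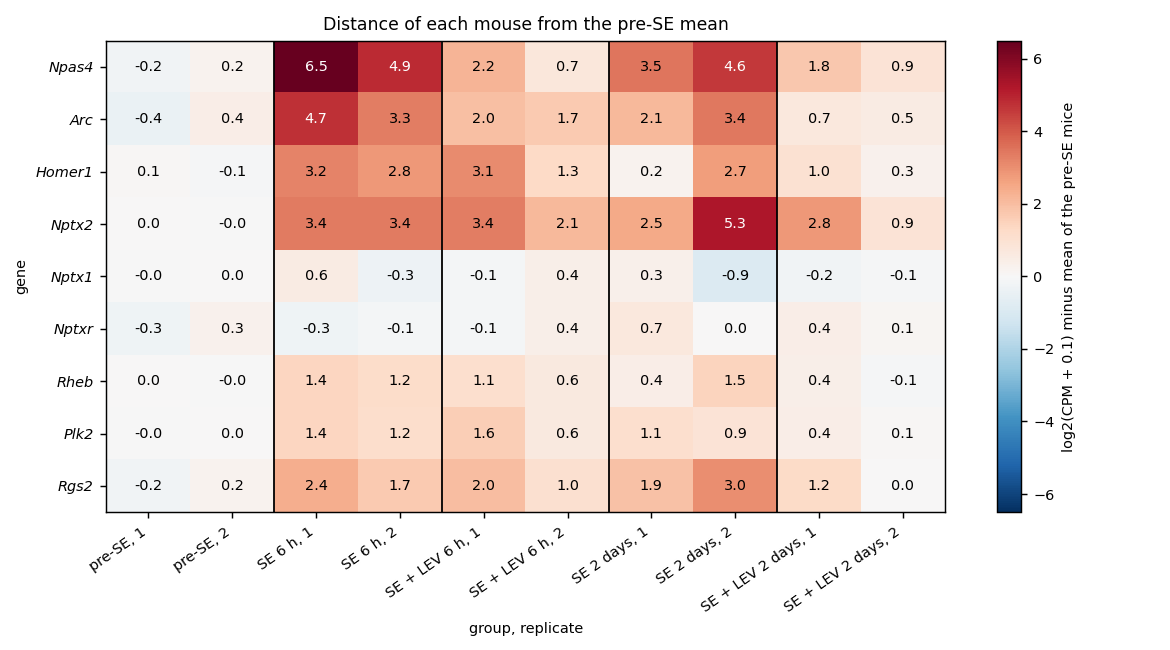
Heat map of the 9 genes (rows) in the 10 mice (columns, by group and replicate), with each cell giving log2(CPM + 0.1) minus the mean of the 2 pre-SE mice. The SE 2 days mouse replicate 2 has a median of 2.70 over the genes and its partner 1.10, and *Nptx1* and *Nptxr* run from -0.90 to 0.70 with both signs among the mice.

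Against pre-SE mice, 2 of the 9 genes, *Npas4* and *Arc*, were called higher in SE 6 h mice (2.76% of all genes tested were called higher and 0.202% lower). The other 5 genes with higher levels in each SE 6 h mouse than in each pre-SE mouse were *Nptx2*, *Homer1*, *Rgs2*, *Rheb* and *Plk2*, so that 7 of 9 genes did not overlap, against 18.6% of all genes in this direction. Their adjusted p ran from 0.0572 to 0.0838 in limma. *Nptx1* and *Nptxr* overlapped between the groups. The median logFC of the 9 genes was 2.03 and that of all genes was -0.13, a shift that a rescaling of the libraries removed. Relative to that shift the logFC was 5.79 for *Npas4* and 4.16 for *Arc*. The other calls moved with the samples in the fit, while *Npas4* and *Arc* were called under all 19 alternatives. Leaving out any mouse of SE 2 days, SE + LEV 6 h or SE + LEV 2 days raised the number of the 9 called. Over all genes, the number called higher fell without a mouse of SE 2 days or SE + LEV 6 h. It rose without a mouse of SE + LEV 2 days.

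In SE 2 days mice, 4 of the 9 genes were called higher than in pre-SE mice, namely *Npas4*, *Nptx2*, *Arc* and *Rgs2* (5.07% of all genes were called higher and 0.593% lower). The same 7 genes as at 6 h had both mice above both pre-SE mice, against 26.3% of all genes, and the median logFC of the 9 genes was 1.47 against -0.03 for all genes. The pre-SE mice are shared by both comparisons. These calls rested on few mice. Without SE 2 days replicate 2 the logFC was 3.46 for *Npas4*, 2.46 for *Nptx2*, 2.10 for *Arc* and 1.91 for *Rgs2*. In the same order it was 4.61, 5.25, 3.44 and 3.01 without SE 2 days replicate 1. Leaving out SE 2 days replicate 2 or either pre-SE mouse lowered the number of genes called, among the 9 and over all genes. Leaving out SE 2 days replicate 1 raised it among the 9 but not over all genes.

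**Figure D3:**
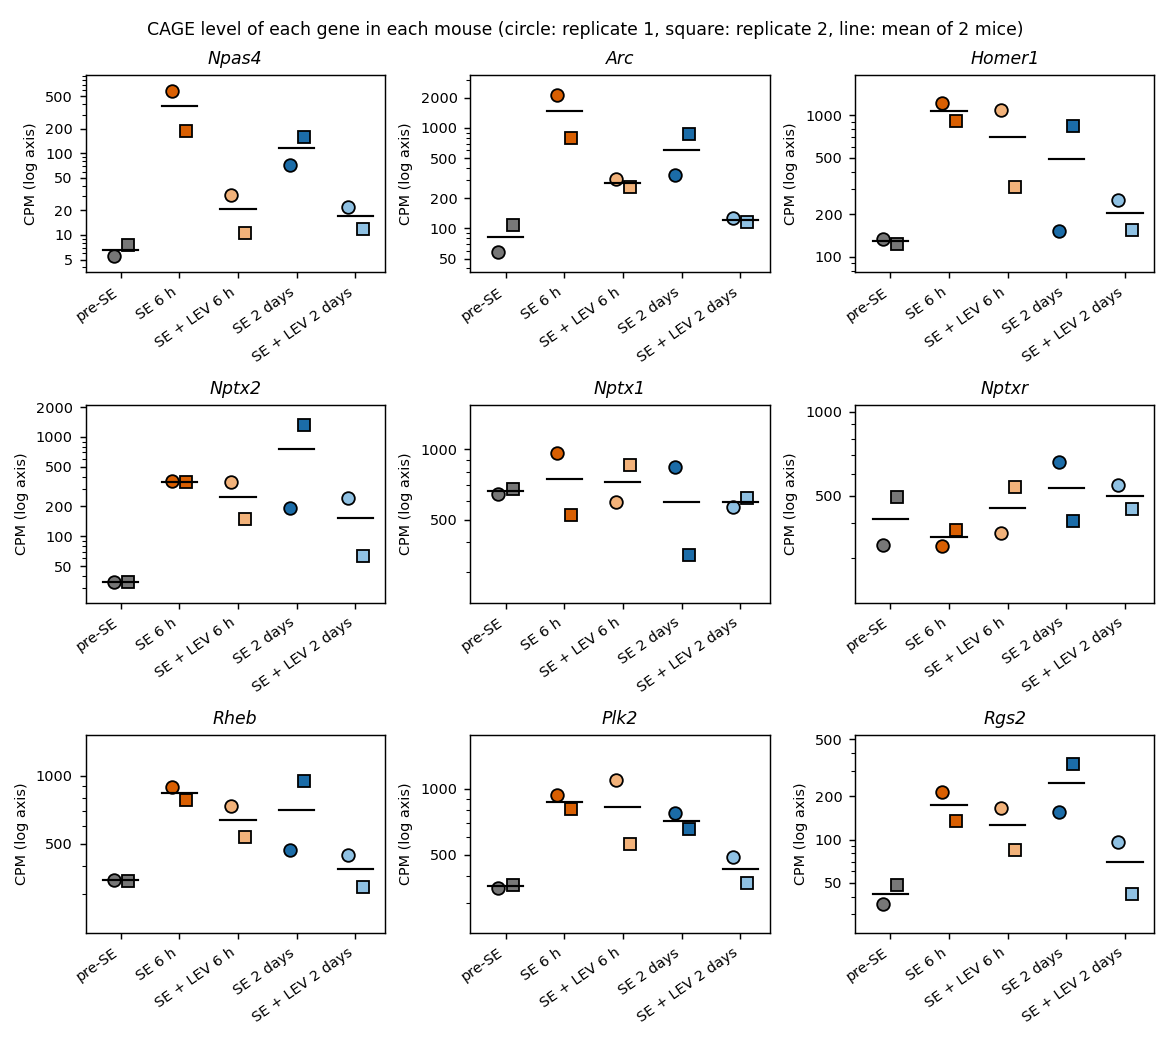
CAGE level in CPM (log axis) of each gene in each mouse by group, with a circle for replicate 1, a square for replicate 2 and a line at the mean of the 2 mice. *Npas4* and *Arc* of both SE groups stand above all other mice, while *Nptx1* and *Nptxr* overlap between most groups.

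*Npas4* (ENSMUSG00000045903, mm9 chr19:4984355-4989971, minus strand) encodes a transcription factor that is nearly silent in resting neurons. It stood at 5.55 and 7.54 CPM in the pre-SE pair, 580 and 189 in the SE 6 h pair, and 30.6 and 10.7 in the SE + LEV 6 h pair. At 2 days it was at 72.3 and 160.1 CPM in the SE pair and 22.3 and 11.95 in SE + LEV mice. Every treated mouse was above both pre-SE mice, and every SE mouse without LEV was above every mouse with LEV. In SE 6 h mice *Npas4* rose by a logFC of 5.66 ± 0.63 (SE, n = 2 and 2 mice, limma adjusted p = 0.00234), which is 50.5-fold. The logFC in SE 2 days mice was 4.03 ± 0.63 (limma adjusted p = 0.00501), or 3.46 with an adjusted p of 0.0671 without SE 2 days replicate 2. By mean level the order was SE 6 h, SE 2 days, SE + LEV 6 h, SE + LEV 2 days and pre-SE, and the mice overlapped between the LEV groups but not between the other neighbours. Of 6 partners, relatives and targets of Npas4, *Bdnf*, the gene of a neurotrophin, rose in SE 6 h mice (logFC 2.43 ± 0.45, limma adjusted p = 0.0178). *Bdnf* was at 52.0 and 39.6 CPM in the pre-SE pair, 231 and 261 in the SE 6 h pair and 89.97 and 253 in the SE 2 days pair (logFC 1.73, adjusted p = 0.0513). The other 5 genes of that list, *Arnt*, *Arnt2*, *Npas1*, *Npas2* and *Npas3*, were not called at either time, and the median of the list was 0.09 at 6 h and 0.04 at 2 days.

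*Arc* (ENSMUSG00000022602, mm9 chr15:74499513-74503000, minus strand) encodes a protein that drives endocytosis of AMPA receptors. Its level was 58.2 and 108 CPM in the pre-SE pair, 2129 and 790 in the SE 6 h pair, and 307 and 260 in the SE + LEV 6 h pair. SE 2 days mice had 339 and 861 CPM and SE + LEV 2 days mice 127 and 115. All 8 treated mice lay above both pre-SE mice, and the lowest SE mouse, at 339 CPM, was above the highest mouse with LEV, at 307. *Arc* rose by a logFC of 4.03 ± 0.52 in the SE 6 h pair (16.4-fold, limma adjusted p = 0.00370) and of 2.77 ± 0.52 in the SE 2 days pair (6.83-fold, limma adjusted p = 0.0121). Without SE 2 days replicate 2 the second value was 2.10 (adjusted p = 0.132), and without pre-SE replicate 1 its adjusted p was 0.102. The mean level fell in the order SE 6 h, SE 2 days, SE + LEV 6 h, SE + LEV 2 days and pre-SE, and SE 6 h and SE 2 days mice overlapped while the other neighbours did not. The genes of endocytic partners of Arc and of AMPA receptors behaved otherwise: 0 of 11 were called by limma at 6 h or at 2 days. Both mice were below both pre-SE mice for 9 of the 11 in the SE 2 days pair (25.6% of all genes), with a median logFC of -0.69 against -0.03 for all genes. *Gria1*, the gene of an AMPA receptor subunit, had a logFC of -0.82 ± 0.30 there (adjusted p = 0.156). Excitatory neuron markers of the same mice had a median logFC of -1.05, with 0 of 6 called and 4 of 6 lower in both mice (25.6% of all genes). The median of the general neuron markers was -0.47, also with 0 called. The part of these markers in the result was not tested.

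*Homer1* (ENSMUSG00000007617, mm9 chr13:94073712-94174917, plus strand) gives a long scaffold protein and, by early termination of the transcript after activity, the short Homer1a that uncouples the scaffold. Tags at a shared start do not separate these forms, and the table holds 1 value for the gene. *Homer1* was at 133 and 124 CPM in the pre-SE pair, 1214 and 916 in the SE 6 h pair and 1082 and 312 in the SE + LEV 6 h pair. At 2 days the SE mice had 151 and 836 CPM and the SE + LEV mice 253 and 155. Both SE 6 h mice were far above the pre-SE mice, whereas of the SE 2 days mice replicate 1 lay close to them. The logFC was 3.03 ± 0.73 at 6 h (8.20-fold, limma adjusted p = 0.0572) and 1.47 ± 0.73 at 2 days (adjusted p = 0.301). In a fit of only the groups compared the adjusted p at 6 h was 0.00345, and over all alternatives it ran from 0.00345 to 0.228. Without SE 2 days replicate 2 the logFC at 2 days was 0.23, and without replicate 1 it was 2.70. By mean level SE 6 h was followed by SE + LEV 6 h, SE 2 days, SE + LEV 2 days and pre-SE, with overlap between all neighbours except the last pair. Of 10 genes of the Homer and glutamate receptor scaffold, such as *Homer2* and *Shank1*, limma called 0 at either time. Their median logFC was -0.15 at 6 h (-0.13 for all genes) and -0.62 at 2 days (-0.03 for all genes), where 7 of the 10 had both SE mice below both pre-SE mice, against 25.6% of all genes.

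The neuronal pentraxins differed among themselves. *Nptx2* (ENSMUSG00000059991, mm9 chr5:145306756-145318347, plus strand), the activity-regulated member also called Narp, stood at 34.5 CPM in both pre-SE mice, at 357 and 355 in the SE 6 h pair and at 353 and 149 in the SE + LEV 6 h pair. SE 2 days mice had 191 and 1318 CPM and SE + LEV 2 days mice 244 and 63.3. Every treated mouse was above the pre-SE mice, and SE 2 days replicate 2 was the highest of all. The logFC of *Nptx2* was 3.36 ± 0.82 at 6 h (10.3-fold, limma adjusted p = 0.0624, with a range of 0.00204 to 0.268 over the alternatives). It rose by a logFC of 3.86 ± 0.82 at 2 days (14.5-fold, limma adjusted p = 0.0233). Without SE 2 days replicate 2 this was 2.46 (adjusted p = 0.183), without pre-SE replicate 1 the adjusted p was 0.11 and without pre-SE replicate 2 it was 0.0903. In order of mean level, SE 2 days overlapped SE 6 h. SE 6 h did not overlap SE + LEV 6 h, but the nearest mice were at 355 and 353 CPM. The LEV groups overlapped each other, and pre-SE mice lay below them.

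*Nptx1* (ENSMUSG00000025582, mm9 chr11:119400033-119409067, minus strand), the constitutive secreted pentraxin, was at 642 and 676 CPM in the pre-SE pair, 967 and 525 in the SE 6 h pair and 595 and 854 in the SE + LEV 6 h pair. It was at 837 and 353 CPM in the SE 2 days pair and 566 and 621 in the SE + LEV 2 days pair. No order could be read from these levels, since all neighbours in mean level overlapped. The logFC was 0.11 at 6 h, with a 95% confidence interval of -0.81 to 1.03, and -0.28 at 2 days, with an interval of -1.20 to 0.64 (limma adjusted p = 0.913 and 0.774). The second value was 0.35 without SE 2 days replicate 2.

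*Nptxr* (ENSMUSG00000022421, mm9 chr15:79616783-79635196, minus strand) encodes the receptor that holds the pentraxins at the membrane. Pre-SE mice had 334 and 494 CPM, SE 6 h mice 331 and 379, and SE + LEV 6 h mice 367 and 537. SE 2 days mice had 662 and 406 CPM and SE + LEV 2 days mice 548 and 449. Neighbouring groups overlapped throughout. The logFC was -0.20 at 6 h (95% confidence interval -0.90 to 0.50, limma adjusted p = 0.784) and 0.35 at 2 days (-0.35 to 1.05, adjusted p = 0.608), or 0.70 without SE 2 days replicate 2. *Nptxr* overlaps *Npcd* on the same strand in the annotation, and the sharing of tags between them is uncertain. *Npcd* was at 447 and 414 CPM in the pre-SE pair and 318 and 257 in the SE 6 h pair (logFC -0.59, adjusted p = 0.207). Of 4 further pentraxins and partners in the table, *Ptx3*, a pentraxin of the immune response, rose at 6 h (logFC 4.35, limma adjusted p = 0.0208) and at 2 days (5.58, adjusted p = 0.00405). *Ptx3* was low, at 0.48 and 0.27 CPM in the pre-SE pair, 9.56 and 9.18 in the SE 6 h pair and 19.2 and 25.2 in the SE 2 days pair, and it overlaps *Veph1* on the other strand. *Gria4*, *Adam17* and *Cbln4* were not called.

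*Rheb* (ENSMUSG00000028945, mm9 chr5:24308641-24348442, minus strand) encodes the small GTPase that activates mTORC1. It was at 346 and 343 CPM in the pre-SE pair, 892 and 781 in the SE 6 h pair and 739 and 536 in the SE + LEV 6 h pair. The values were 469 and 950 CPM in the SE 2 days pair and 447 and 322 in the SE + LEV 2 days pair. The pre-SE mice were close together, and all treated mice but SE + LEV 2 days replicate 2 were above them. The logFC was 1.28 ± 0.34 at 6 h (2.42-fold, limma adjusted p = 0.0838) and 0.95 ± 0.34 at 2 days (1.94-fold, adjusted p = 0.147). At 2 days the logFC was 0.44 without SE 2 days replicate 2 (adjusted p = 0.771). Without SE 2 days replicate 1 the adjusted p was 0.0422 at 6 h and 0.0403 at 2 days, and over all alternatives it ran from 0.0400 to 0.311 and from 0.0403 to 0.771. Among neighbours in mean level, only SE + LEV 6 h and SE + LEV 2 days mice did not overlap. Of 11 genes of the mTORC1 pathway, *Eif4ebp1*, which encodes a repressor of translation that mTORC1 inactivates, was the gene called at both times. *Eif4ebp1* was at 5.48 and 5.65 CPM in the pre-SE pair, 20.6 and 24.4 in the SE 6 h pair and 36.8 and 39.7 in the SE 2 days pair (logFC 1.99 and 2.76, limma adjusted p = 0.0437 and 0.00591). The other 10, among them *Mtor*, *Rptor*, *Tsc1* and *Tsc2*, were not called, and the median of the list was -0.21 at 6 h and -0.07 at 2 days.

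*Plk2* (ENSMUSG00000021701, mm9 chr13:111185252-111191052, plus strand), a kinase that acts in homeostatic weakening of synapses, carries the full CRE printed among the promoters. Its level was 352 and 364 CPM in the pre-SE pair, 936 and 803 in the SE 6 h pair and 1096 and 557 in the SE + LEV 6 h pair. SE 2 days mice had 771 and 652 CPM and SE + LEV 2 days mice 486 and 373. All 8 treated mice were above both pre-SE mice, with SE + LEV 2 days replicate 2 close to them. The logFC was 1.27 ± 0.32 at 6 h (2.42-fold, limma adjusted p = 0.0661) and 0.98 ± 0.32 at 2 days (1.98-fold, adjusted p = 0.111), or 1.10 without SE 2 days replicate 2. Without SE + LEV 6 h replicate 1 the adjusted p at 6 h was 0.0346, without SE + LEV 6 h replicate 2 it was 0.0357, and over all alternatives it ran to 0.253. In mean level SE 6 h, SE + LEV 6 h and SE 2 days overlapped as neighbours, and SE + LEV 2 days and pre-SE mice each lay apart. Of 8 relatives and substrates, *Plk5*, a relative that lacks part of the kinase domain, fell at both times, from 9.73 and 15.0 CPM in the pre-SE pair to 1.28 and 1.58 in the SE 6 h pair (logFC -3.00, limma adjusted p = 0.0165) and to 3.05 and 1.39 in the SE 2 days pair (-2.49, adjusted p = 0.0249). *Plk1*, a mitotic kinase, was at 0.13 to 0.28 CPM in every pre-SE and 6 h mouse and rose to 4.03 and 8.36 in the SE 2 days pair (logFC 4.31, limma adjusted p = 0.00137). The other 6 genes of that list, among them *Plk3*, *Plk4* and the substrates *Sipa1l1* and *Rasgrf1*, were not called.

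*Rgs2* (ENSMUSG00000026360, mm9 chr1:145846468-145851291, minus strand) encodes a regulator of G protein signalling that acts mainly on Gq. It was at 35.7 and 48.2 CPM in the pre-SE pair, 215 and 134 in the SE 6 h pair and 167 and 84.8 in the SE + LEV 6 h pair. SE 2 days mice had 157 and 335 CPM and SE + LEV 2 days mice 96.8 and 41.7. One mouse of SE + LEV 2 days, replicate 2, lay within the pre-SE range and the other treated mice above it. The logFC was 2.03 ± 0.49 at 6 h (4.09-fold, limma adjusted p = 0.0610, with a range of 0.0176 to 0.259 over the alternatives). *Rgs2* rose by a logFC of 2.46 ± 0.49 at 2 days (5.51-fold, limma adjusted p = 0.0170). Without SE 2 days replicate 2 the logFC was 1.91 and the adjusted p 0.189, without pre-SE replicate 1 it was 0.117 and without pre-SE replicate 2 it was 0.0538. SE 2 days had the highest mean, followed by SE 6 h, SE + LEV 6 h, SE + LEV 2 days and pre-SE, and each pair of neighbours overlapped. Of 9 other Rgs genes, G protein subunits and effectors, *Rgs7* rose at both times, from 2.31 and 1.24 CPM in the pre-SE pair to 50.6 and 37.2 in the SE 6 h pair and 6.78 and 20.2 in the SE 2 days pair (logFC 4.60 and 2.72, limma adjusted p = 0.00234 and 0.0135). *Rgs4*, another regulator of Gq and Gi signalling, was at 275 and 236 CPM in the pre-SE pair and 1023 and 728 in the SE 6 h pair (logFC 1.76, adjusted p = 0.0717) and rose to 873 and 1072 in the SE 2 days pair (logFC 1.93, limma adjusted p = 0.0342). The remaining 7 genes were not called at either time.

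**Figure D4:**
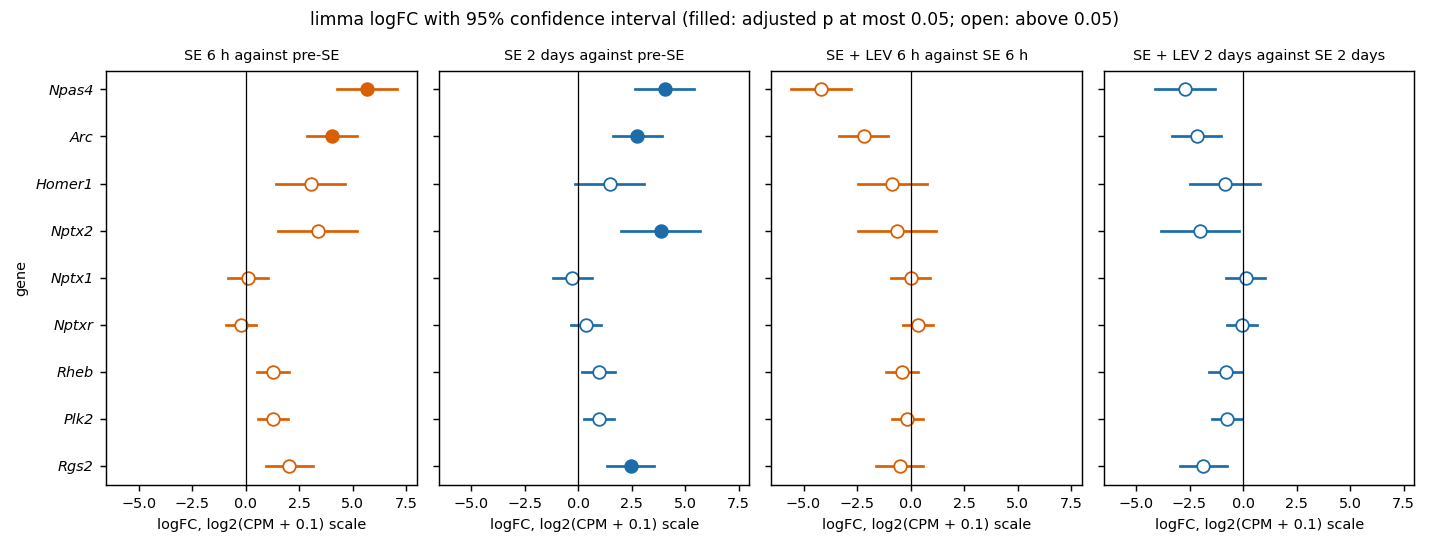
limma logFC (x axis, log2(CPM + 0.1) scale) with its 95% confidence interval for each gene in 4 comparisons, 2 mice a group, with filled points where the adjusted p was at most 0.05. *Npas4* and *Arc* are filled in both comparisons with pre-SE mice, *Nptx2* and *Rgs2* at 2 days, and all points are open in both comparisons of SE + LEV with SE mice.

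The comparison of SE + LEV with SE mice asks how these genes stood when LEV had been given after SE. None of the 9 genes was called by limma at 6 h, where 0.0126% of all genes were called lower and 0% higher, and 0 at 2 days, where 0% were called in either direction. At an unadjusted p under 0.05 there were 2 genes at 6 h (4.58% of all genes in either direction) and 6 at 2 days (2.7%). At each time 8 of the 9 genes had a lower estimate with LEV. Their median logFC was -0.51 (6 h) and -0.85 (2 days), that of all genes 0.04 at both times. SE mice that were high in the comparison with pre-SE mice serve here as the reference, so the 2 sets of differences share mice.

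At 6 h, *Npas4*, *Arc*, *Rheb* and *Nptx2* were lower in both SE + LEV mice than in both SE mice, which was so for 13.4% of all genes. The logFC of *Npas4* was -4.18 ± 0.63 (18.2-fold lower, limma adjusted p = 0.0749, 0.0568 to 0.677 over the alternatives), at percentile 0.0568 of all genes. *Arc* had a logFC of -2.20 ± 0.52 (4.59-fold lower, adjusted p = 0.361), at percentile 0.536. The other genes had smaller estimates, from -0.86 for *Homer1* to 0.33 for *Nptxr*, all with an adjusted p of 1.0. *Homer1* and *Plk2* depended on the mouse: SE + LEV 6 h replicate 1 was at 1082 and 1096 CPM, in or above the range of the SE mice, and replicate 2 was at 312 and 557. Without SE + LEV 6 h replicate 2 the logFC was 0.037 for *Homer1*, 0.34 for *Plk2* and -0.013 for *Nptx2*. *Nptx2* in SE + LEV 6 h replicate 1, at 353 CPM, lay just below the lower SE 6 h mouse, at 355 CPM.

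At 2 days, *Npas4*, *Arc*, *Rgs2*, *Rheb* and *Plk2* were lower in both SE + LEV mice than in both SE mice, against 12.2% of all genes. The logFC was -2.71 ± 0.63 for *Npas4*, -2.16 ± 0.52 for *Arc* and -1.85 ± 0.49 for *Rgs2*, at percentiles 0.0883, 0.183 and 0.341 of all genes, with an adjusted p of 1.0 in limma for each. *Nptx2* had a logFC of -2.01 ± 0.82, but SE + LEV replicate 1 (244 CPM) was above SE replicate 1 (191 CPM). *Homer1* had a logFC of -0.85 and *Rheb* of -0.81. Without SE 2 days replicate 2 the logFC was -2.14 for *Npas4*, -1.49 for *Arc*, -1.30 for *Rgs2*, -0.86 for *Plk2*, -0.62 for *Nptx2*, -0.30 for *Rheb* and 0.39 for *Homer1*. *Nptx1* (0.12) and *Nptxr* (-0.06) were near 0, with 95% confidence intervals of -0.80 to 1.04 and -0.76 to 0.64, and were -0.50 and -0.42 without that mouse.

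The difference between the LEV comparison at 2 days and that at 6 h was tested as an interaction, and limma called 0 of the 9 genes (0% of all genes) and found 0 at an unadjusted p under 0.05 (2.38% of all genes). The estimates ran from -1.37 ± 1.17 for *Nptx2* and -1.33 ± 0.70 for *Rgs2* to 1.47 ± 0.89 for *Npas4*. The 95% confidence interval was narrowest for *Nptxr* (-1.38 to 0.60) and widest for *Nptx2* (-3.97 to 1.22).

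Compared directly with pre-SE mice, SE + LEV mice showed 0 called genes among the 9 at 6 h (0.315% of all genes higher, 0.00631% lower) and 0 at 2 days (2.83% higher, 0.0189% lower), in limma. Unadjusted p values under 0.05 were found for 7 genes at 6 h (9.38% of all genes in either direction) and for 1 at 2 days (10.8%), a share near that of all genes. The same 7 genes that stood above pre-SE in SE 6 h mice had both SE + LEV 6 h mice above both pre-SE mice, against 17% of all genes. The estimates there were 2.73 for *Nptx2*, 2.18 for *Homer1*, 1.83 for *Arc*, 1.52 for *Rgs2*, 1.47 for *Npas4*, 1.12 for *Plk2* and 0.87 for *Rheb*. *Npas4* had the highest estimate of the 9 in SE 6 h mice, with a logFC of 5.66. With LEV its estimate of 1.47 ± 0.63 was below those of *Nptx2*, *Homer1*, *Arc* (1.83 ± 0.52) and *Rgs2* (1.52 ± 0.49). Differences between genes were not tested. At 2 days 5 genes (*Homer1*, *Plk2*, *Arc*, *Npas4* and *Nptx2*) did not overlap in the higher direction (22.6% of all genes) and *Nptx1* in the lower (17.5%), with estimates of 1.85 for *Nptx2*, 1.32 for *Npas4* and under 0.7 in size for the others.

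Between SE 6 h and SE 2 days mice, limma called 0 of the 9 genes (3.14% of all genes higher and 1.11% lower at 2 days), and 2 had an unadjusted p under 0.05 (20.1% of all genes), a share near that of all genes. *Npas4* (logFC -1.62), *Homer1* (-1.57) and *Plk2* (-0.29) were lower in both SE 2 days mice, against 20.1% of all genes, and *Nptxr* (0.55) was higher, against 31%. *Arc* had a logFC of -1.26 with overlapping mice. *Nptx2* (0.49) and *Rgs2* (0.43) had higher estimates at 2 days, which turned to -0.90 and -0.12 without SE 2 days replicate 2. Without that mouse the logFC was -2.80 for *Homer1* (limma adjusted p = 0.0773), -2.20 for *Npas4*, -1.93 for *Arc* and -0.83 for *Rheb*. From SE + LEV 6 h to SE + LEV 2 days mice, limma called 0 of the 9 (2.06% of all genes higher, 0.0757% lower) and 2 had an unadjusted p under 0.05 (11.9% of all genes). *Homer1* (-1.56), *Arc* (-1.22), *Plk2* (-0.88) and *Rheb* (-0.73) were lower in both mice at 2 days, against 14.6% of all genes.

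Other activity-regulated genes, 21 transcription factors, phosphatases and secreted or signalling proteins from *Fos* to *Nrn1*, were set beside the 9 genes. Like the 9, this list was chosen with earlier results of these data known. Of these 21, 16 were called higher in SE 6 h mice (2.76% of all genes) and 11 in the SE 2 days pair (5.07%) and 0 lower, with medians of 3.10 and 2.43. The largest changes at 6 h were those of *Inhba*, a subunit of activin (logFC 6.69), *Fosb* and *Fos*, which encode AP-1 factors (6.22 and 5.29), and *Egr2*, a zinc finger factor (4.94), with limma adjusted p of 0.00361, 0.00234, 0.00234 and 0.00977. At 2 days the same 4 had logFC values of 4.58, 3.79, 3.62 and 3.93, all called. *Fosb* was at 5.90 and 11.2 CPM in the pre-SE pair, 586 and 645 in the SE 6 h pair, 398 and 72.4 in the SE + LEV 6 h pair, 76.5 and 171 in the SE 2 days pair and 37.8 and 21.1 in the SE + LEV 2 days pair. With LEV, limma called 0 of the 21 at either time, and 18 of 21 at 6 h (13.4% of all genes) and 19 of 21 at 2 days (12.2%) had both SE + LEV mice below both SE mice, with medians of -1.55 and -1.66.

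**Figure D5:**
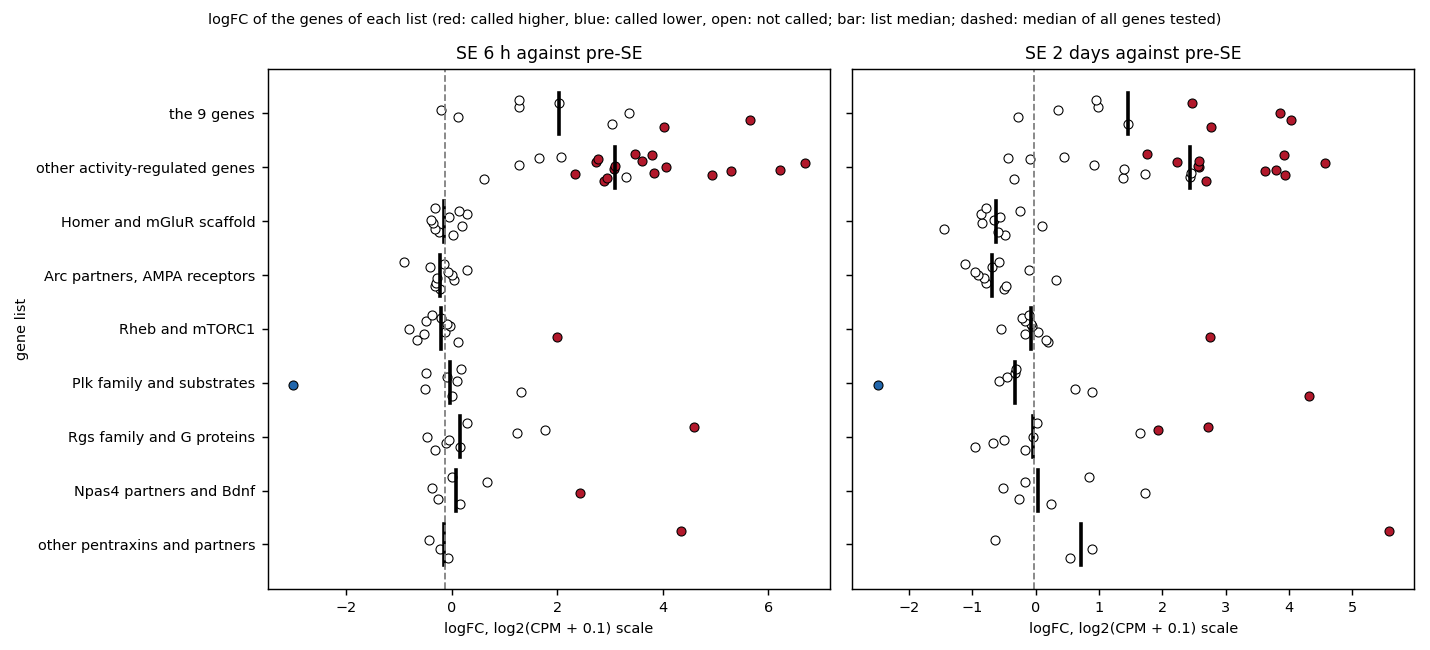
limma logFC (x axis, log2(CPM + 0.1) scale) of every gene of the 9 and of 8 further lists (y axis) in SE 6 h and SE 2 days against pre-SE mice, with red points called higher, blue points called lower, open points not called, bars at list medians and a dashed line at the median of all genes. The list of other activity-regulated genes has a median of 3.10 at 6 h and 2.43 at 2 days, and the scaffold and AMPA receptor lists have medians of -0.62 and -0.69 at 2 days.

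Likeness of pattern was measured as Pearson's r of log2(CPM + 0.1) over the 10 libraries among 14220 genes, as a description in which the points share libraries and groups. *Arc* and *Npas4* were among the closest to each other (r = 0.952), as were *Nptx2* and *Rgs2* (0.951) and *Homer1* and *Rheb* (0.951). For *Nptx1* and *Nptxr*, r with any other of the 9 ran from -0.547 (*Nptxr* with *Homer1*) to 0.196. Outside the 9, the most alike were *Gadd45g*, *Klf6* and *Nr4a1* for *Npas4* (0.975 to 0.964), *Rrad*, *Jun* and *Dnajc1* for *Arc* (0.959 to 0.957), and *Gm12263*, *Ifrd1* and *Mir1938*, which lies within *Ifrd1*, for *Homer1* (0.968 to 0.964). *Vgf*, *Acan* and *AI854517* were nearest to *Nptx2* (0.981 to 0.964), *Ptgs2*, *Rgs16* and *Sorcs1* to *Rgs2* (0.965 to 0.950), *Dusp4*, *0610007L01Rik* and *Pcdh7* to *Rheb* (0.993 to 0.973), and *Arid5b*, *Egr3* and *Adm* to *Plk2* (0.951 to 0.942). For *Nptx1* they were *N4bp3*, *Safb* and *Noc3l* (0.907 to 0.887) and for *Nptxr* *Ss18*, *Zcchc6* and *Cxcr7* (0.953 to 0.938). *Vgf*, the gene of a secreted neuropeptide precursor, showed what such likeness looks like: it was at 225 and 204 CPM in the pre-SE pair, 756 and 720 in the SE 6 h pair and 627 and 579 in the SE + LEV 6 h pair. It was at 478 and 1172 CPM in the SE 2 days pair and 556 and 284 in the SE + LEV 2 days pair, with SE 2 days replicate 2 again the highest. *Dusp4*, a phosphatase of MAP kinases, had the same high mouse, at 89.8 CPM against 23.1 in its partner.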

How the data were processed

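CAGE libraries of whole hippocampi from 10 mice, 2 in each of 5 groups taken from the labels, were used. Mapping by the authors was to mm9, first with BWA 0.7.17 and then with HISAT2 2.0.5. The RECLU pipeline formed tag clusters, those below 0.1 CPM were dropped, and the deposited table holds 1 CPM value per gene and mouse, rounded to hundredths. Sequencing batches, the summing of clusters to genes and the use of strand are not given in the sources used here, and of the columns with values per mouse 0 went unused. Depth was estimated from the smallest step between the CPM values of each library. At least 99.99% of values were whole tags within 0.0051 CPM, which is wide against the step of the deepest libraries.

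Genes had to reach 0.1 CPM in 2 or more libraries, which 15851 did. Their log2(CPM + 0.1) values were fitted with limma 3.58.1 in R 4.3.3, with all 10 libraries, 5 group means, a mean-variance trend and two-sided tests, and were adjusted by Benjamini-Hochberg over all genes in each of 9 comparisons. The fit was tested on simulated data. Tables and figures used Python 3.11.15, numpy 2.4.6, pandas 2.3.3 and matplotlib 3.10.9. Promoters came from the RefSeq table on GRCm38.p6, and gene positions from the mm9 annotation.

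The members, lists and tests were chosen with earlier results of these data known. All 9 members were named in every comparison, with up to 4 called genes of each list, direct partners, and the 3 genes most alike to each member (mean of at least 1 CPM). Some genes of the lists are counted but not reported here by name. *Zbtb20* was left out of its list because its symbol is on 2 rows. Alternatives were pseudocounts of 0.01, 0.5 and 1, no filter, a filter of 1 CPM, median-of-ratios rescaling, a replicate block, no trend, a fit restricted to the compared groups and leaving out each mouse. A block with crossed numbers was added after seeing the data. Count tests on tags recovered from the CPM were planned but not run, because rounding blurred the steps of several libraries.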

Additional observations from a re-analysis of the deposited data

How the results depend on the processing

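Of 1557 logFC values of the 9 genes under the alternatives, 1493 kept their direction and their side of the threshold. In SE 6 h against pre-SE mice, the count of genes called was 2, became 5 in a fit of only the groups compared (*Homer1*, *Rgs2* and *Nptx2* were added) and ran from 2 to 5 when 1 mouse was left out. In SE 2 days against pre-SE mice it was 4 and ran from 0 to 6 when 1 mouse was left out. All other comparisons had 0 of the 9 called under every alternative run. The cause of these moves was not tested beyond the mice left out. Over all genes, leaving out a mouse moved the calls from 469 to between 111 and 531 in SE 6 h against pre-SE mice, from 897 to 249 to 1162 in SE 2 days against pre-SE mice, from 51 to 0 to 88 in SE + LEV 6 h against pre-SE mice, from 451 to 108 to 638 in SE + LEV 2 days against pre-SE mice (67 in a fit of only the groups compared), from 674 to 162 to 917 between SE 2 days and SE 6 h mice, and from 339 to 42 to 482 between the SE + LEV groups (122 in a fit of only the groups compared). In SE + LEV 6 h against SE 6 h mice they were 2, with 0 to 10 over all alternatives, and 14 in SE + LEV 6 h against pre-SE mice with a pseudocount of 1.

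Direction changed only where a mouse was left out, in 24 results. In SE 6 h against pre-SE mice the logFC then ran from -0.33 to 0.55 for *Nptx1* and from -0.48 to 0.084 for *Nptxr*, and in SE 2 days against pre-SE mice from -0.90 to 0.35 for *Nptx1*. In SE + LEV 6 h against SE 6 h mice it ran from -1.75 to 0.037 for *Homer1*, from -0.44 to 0.44 for *Nptx1* and from -0.64 to 0.34 for *Plk2*. In SE + LEV 2 days against SE 2 days mice it ran from -2.08 to 0.39 for *Homer1*, from -0.50 to 0.75 for *Nptx1* and from -0.42 to 0.29 for *Nptxr*. Between SE 2 days and SE 6 h mice it ran from -1.01 to 0.23 for *Nptx1*, from -0.90 to 1.89 for *Nptx2*, from -0.83 to 0.19 for *Rheb* and from -0.12 to 0.98 for *Rgs2*. Against pre-SE mice, SE + LEV 6 h mice gave -0.15 to 0.37 for *Nptx1* and -0.15 to 0.41 for *Nptxr*, and SE + LEV 2 days mice -0.10 to 0.38 for *Rheb*. Between the SE + LEV groups it ran from -1.85 to 0.094 for *Nptx2*, from -0.11 to 0.43 for *Nptxr* and from -0.90 to 0.60 for *Npas4*. For the difference between the LEV comparisons it ran from -0.68 to 0.75 for *Arc*, from -1.22 to 1.25 for *Homer1*, from -0.50 to 0.75 for *Nptx1*, from -2.77 to 0.019 for *Nptx2* and from -0.92 to 0.10 for *Rheb*. A lone mouse was taken to vary like the mice of the other groups.

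The replicate numbers of the labels pair no animals, and the correlation of same-numbered deviations ran from -0.44 to 0.34. With replicate number as a block, 3 of the 9 genes were called in SE 6 h against pre-SE mice (*Plk2* was added), 4 in SE 2 days against pre-SE mice and 0 in the other comparisons. With the numbers crossed in 1 group, a pairing added after seeing the data, 0 of the 9 were called in SE + LEV 2 days against SE 2 days or pre-SE mice (0 and 599 of all genes). Precision is limited by 2 mice a group, and the shallowest library held an estimated 10540696 tags.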
